A study of Mus musculus with 8 samples.

Results

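The genes for ribosomal RNA lie in the mouse genome as tandem arrays of a 45S unit, and the mm10 assembly holds a stretch of such a unit on chromosome 17, at chr17:39843013-39848827. All cytosines of the methylation table inside this stretch were taken, which gave 864 of the 2131605 cytosines of the table. The stretch was chosen from earlier values of these same data, namely its very high read depth and a lower level in the arsenic samples. Its depth and the contrast between the groups on it are therefore described below, and where the calls of tests across all cytosines are counted on it, they support nothing.

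The cells were type A spermatogonia, the mitotic germ cells of the young testis, of F1 males of the C3H/HeN strain at postnatal day 6. For the arsenic group, sodium arsenite was added to the dams' drinking water at 85 ppm between gestational days 8 and 18, whereas control dams received tap water. Each group comprised 4 samples, and a sample combined the 8 testes of 4 mice, so that a value is an average over animals. The cells were enriched with magnetic beads through the surface protein CD49f. Expression of marker genes was not analysed here, and somatic cells that carry CD49f may remain. The 8 pools are separate samples in the labels.

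An active 45S unit is transcribed by RNA polymerase I into a long precursor. The 18S, 5.8S and 28S rRNAs are cut out of it, and the external and internal transcribed spacers between them are degraded. Only some of the many units of a cell are active at a time, and methylation of CpGs in the promoter and body of a unit is known to mark silent units. The promoter of the unit could not be placed on the stretch, so no level below is given as that of a promoter. Reads from any unit that are alike enough can be placed on this copy of the assembly, so that a level here is an average over an unknown number of units and not over 1 locus. How many units contributed was not tested.

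RRBS (reduced representation bisulfite sequencing) cuts DNA at CCGG with MspI, selects fragments by size, and reads an unmethylated cytosine as T. Of the 5815 bases of the copy, 65.0% are G or C. It holds 596 CpGs and 69 CCGG sites, whereas windows of this length on chromosome 17 held a median of 48 CpGs and 3 CCGG sites, and 0 of 15738 windows held as many CpGs. The annotation places 18S at chr17:39846354-39848202, 1849 bases that RefSeq lists as the pseudogene Rn18s-rs5. The 3341 bases before it, chr17:39843013-39846353, are called the upstream spacer here. GENCODE annotates a lincRNA, Gm26917, over nearly all of them. The 625 bases after 18S, chr17:39848203-39848827, are called the downstream spacer and lie where the first internal spacer of a unit begins. In GENCODE an entry of class rRNA, CT010467.1, covers 18S and this spacer on the minus strand. The lincRNA Gm42418 overlaps both, and the lincRNA AY036118 lies inside 18S. No 5.8S or 28S could be placed, since the longest stretch shared with the copy was 11 of 148 bases for 5.8S and 17 of 420 bases for an annotated piece of 28S.

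Each cytosine is named by its distance in bases from the start of the copy and its strand, so that c4129+ and c4130- are the cytosines of one CpG on the plus and minus strands. The following 30-base windows of the GRCm38 reference (the mm10 build, from C57BL/6J mice) show the cytosines on which the account turns. All are written 5′ to 3′ on the plus strand with the CpG in capitals, and a minus-strand cytosine pairs with the capital G. The first group holds the deepest cytosine of each part, in the upstream spacer, 18S and the downstream spacer.
c2470- at chr17:39845468-39845497: gtccttccatctctCGcgcaatggcgccgc
c3522- at chr17:39846520-39846549: ctaatacatgcccaCGggcgctgacccccc
c5211+ at chr17:39848210-39848239: ctgtggaggagcggCGgcgtggctcgctct

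The next group shows extremes of the level, in the order highest of the upstream spacer, at 0 in every sample, highest of the copy, lowest of 18S and lowest of the downstream spacer.
c652+ at chr17:39843651-39843680: actcattgctttccCGtggggagctttgag
c2954+ at chr17:39845953-39845982: tgtctcgccggtgtCGcgcttctctttccg
c3825+ at chr17:39846824-39846853: aggaaggcagcaggCGcgcaaattacccac
c4274- at chr17:39847272-39847301: atgattaagagggaCGgccgggggcattcg
c5209- at chr17:39848207-39848236: agactgtggaggagCGgcggcgtggctcgc

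The last group shows the 3 CpGs whose strands differed most and the cytosines with the largest decrease and the largest increase. The first of them is also the only differentially methylated cytosine (DMC) of the copy.
c4129+ and c4130- at chr17:39847128-39847157: ttagctgagtgtccCGcggggcccgaagcg
c4619+ and c4620- at chr17:39847618-39847647: aacctcacccggccCGgacacggacaggat
c5250+ and c5251- at chr17:39848249-39848278: gtgtgtgtcctcgcCGggaggcgcgtgcgt
c2871- at chr17:39845869-39845898: gtcccccgcctgccCGtcccggtggtggtc
c2264+ at chr17:39845263-39845292: gtgttggggcctgcCGgagtgccgaggtgg

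Over the whole table, summed coverage ran from 96428439 to 133406260 reads per sample, where a read counts once at each cytosine it covers. The median coverage was 31 to 44 reads. The mean level of all cytosines was 53.6% to 54.3%. Of 165 mitochondrial cytosines, which are expected to read almost wholly as T, 1.07% to 1.47% read as C, which gives the share of unconverted bases only roughly. The bisulfite conversion rate that the paper reports leaves a larger share unconverted. The lowest levels below lie near such shares, and the part of unconverted bases in them was not tested.

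The copy was read far more deeply than the genome. Its median coverage was 504.5 to 718 reads, which was 13.9 to 20.6 times that of all cytosines in the same sample. In the control samples the copy took 1.218%, 1.10%, 1.03% and 1.13% of all coverage. In the arsenic samples it took 1.04%, 1.15%, 1.18% and 1.08%. The groups overlapped, with means of 1.12% ± 0.0775 (SD, n = 4) and 1.11% ± 0.0673 (SD, n = 4). The Wilson 95% interval of a sample's share was narrow (1.216% to 1.2202% in control 1), but neighbouring cytosines share reads and the reads carry no molecular identifiers. Such intervals cover counting error only. Of the 4066 cytosines that were among the 0.1% deepest of any sample, 571 lay in the copy.

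Coverage moved in blocks along the copy. Many blocks matched an MspI fragment on a strand, but within the longest fragments coverage changed too. On the plus strand of the 339-base fragment across the end of 18S it ran from 46 to 7213 reads, and on that of a 428-base fragment inside 18S from 46 to 1535. Over the copy it ranged from 10 reads, the minimum of the table, to 9960. The deepest cytosine of the upstream spacer, c2470-, had 6376 to 9960 reads, that of 18S, c3522-, had 5304 to 8572, and that of the downstream spacer, c5211+, had 4465 to 7213. The shallowest cytosines had 10 to 26 reads (c2948+), 13 to 25 (c4277+) and 12 to 34 (c5467+) in the same order. The minus strand held more of the coverage than the plus strand, 0.700% ± 0.0415 against 0.415% ± 0.0298 of all coverage (SD over the 8 samples). This came from the spacers. In 18S the strands were close, at 0.151% ± 0.0101 and 0.145% ± 0.0109. In a fragment of 189 bases at distance 2337 the minus strand had 30.6 times the coverage of the plus strand, and in 1 of 176 bases that spans the start of 18S it had 158 times. In the fragment of 339 bases that spans the end of 18S the plus strand was deeper, by 7.48 times.

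**Figure D1:**
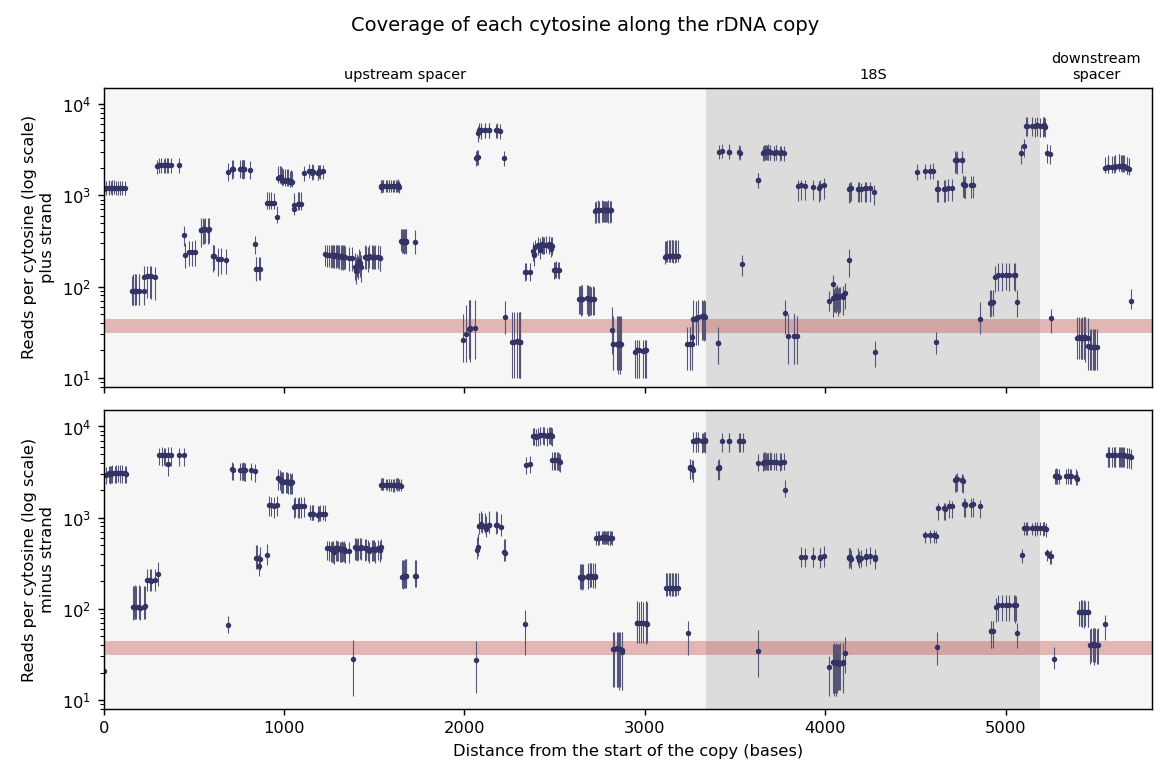
Reads per cytosine (log scale) against distance from the start of the copy in bases, on the plus strand (top) and the minus strand (bottom). Points are means of the 8 samples, vertical lines run from the lowest to the highest sample, the grey block is 18S, and the red band is the range of the samples' median coverage over all cytosines (31 to 44 reads). Coverage forms steps, from near the band to above 1000 reads, most of them between fragments and some within long fragments.

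The table held 554 of the 748 CpG cytosines of the upstream spacer, 209 of the 280 of 18S and 101 of the 164 of the downstream spacer. Of the 68 fragments between CCGG sites, 43 were 40 bases or longer, and 33 of these had at least 3 cytosines of the table on a strand. Of the 25 shorter ones 0 had as many, and 7 had a single cytosine on a strand. The longest fragment without any cytosine in the table had 154 bases and lay inside 18S, from distance 4319 to 4473.

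As placed on the assembly, the copy was a low-methylated island in methylated surroundings, though its reads may come from units elsewhere. Its mean level was 20.2% ± 1.61 (SD over the 8 samples), against 54.1% to 54.7% in the rest of chromosome 17. The 5 nearest cytosines before the copy, 447 to 737 bases from it, stood at 61.1% to 79.5% with 13 to 80 reads. The 5 nearest after it, 5175 to 5207 bases away, stood at 86.9% to 93.3% with 13 to 35 reads. Within the copy 803 cytosines had a mean level from 5% to 50%, 52 lay below 5% and 9 lay above 50%.

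Among the control samples the mean level of the copy was 22.1%, 23.1%, 20.5% and 19.9%. Among the arsenic samples it was 19.1%, 19.2%, 18.4% and 19.4%. All 4 arsenic samples lay below the lowest control sample, and the spread among controls was the larger. The means were 21.4% ± 1.46 and 19.04% ± 0.453 (SD, n = 4 each), a difference of -2.36 percentage points. Taken as all methylated reads over all reads, the difference was -2.63 points. Since this contrast helped to choose the copy, no test is given.

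By strand, the mean over all cytosines showed the wider gap between the groups on the minus strand. Its 420 cytosines averaged 23.9%, 23.9%, 20.2% and 20.5% in the control samples. They averaged 19.5%, 18.8%, 18.6% and 18.8% in the arsenic samples. The groups did not overlap and differed by -3.19 points, with controls 1 and 2 well above the other controls. On the plus strand, with 444 cytosines, controls ran from 19.3% to 22.3% and arsenic samples from 18.2% to 20.01%. These overlapped, with a difference of -1.58 points. The strands were closer at deep cytosines. At the 341 minus-strand and 317 plus-strand cytosines with at least 100 reads in every sample the differences were -2.62 and -2.44 points. At the 79 and 127 others they were -5.64 and 0.55 points. By part, these shallower cytosines differed in direction. On the minus strand the arsenic mean was lower in the upstream spacer, 18S and the downstream spacer, by -4.62, -9.64 and -1.62 points. On the plus strand it was higher in the upstream spacer (1.39 points) and in 18S (1.99 points), and lower in the downstream spacer (-4.79 points).

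The upstream spacer, the longest part, averaged 22.3% ± 1.66 in controls and 20.03% ± 0.806 in arsenic samples (SD, n = 4 each), and the groups overlapped at 20.3% to 24.2% against 19.2% to 20.8%. On its minus strand the 4 arsenic samples fell within 19.5% to 19.9%, below the lowest control at 20.8%. On its plus strand they ran from 18.9% to 21.7%, with 2 of the 4 below the lowest control, and controls ran from 19.9% to 23.8%. The difference was -2.98 points on the minus strand and -1.57 on the plus strand, the latter -0.95 points without control 2.

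In 18S, which encodes the RNA of the small ribosomal subunit, the strands differed most by this measure. On its minus strand the 101 cytosines averaged 23.1%, 20.2%, 18.8% and 20.5% in controls 1 to 4. In arsenic samples 1 to 4 they averaged 17.1%, 15.8%, 16.2% and 16.7%. The groups were separate, with a difference of -4.20 points, the largest of any part and strand. On the plus strand of 18S the 108 cytosines ran from 18.3% to 19.8% in controls and from 17.995% to 18.7% in arsenic samples, a difference of -0.88 points with overlap. The mean over the plus strand joined opposite differences. With at least 100 reads in every sample, 73 cytosines of the minus strand ran from 17.9% to 20.5% in controls and from 16.4% to 17.4% in arsenic samples. On the plus strand 71 such cytosines ran from 12.1% to 14.9% in controls and from 11.10% to 11.3% in arsenic samples. At this depth the groups were separate on both strands, with differences of -2.11 and -2.38 points, and the gap was not the wider on the minus strand. The 37 other cytosines of the plus strand went the opposite way, from 29.02% to 30.5% in controls and from 30.8% to 33.2% in arsenic samples, also without overlap. The 28 others of the minus strand ran from 20.2% to 29.7% in controls and from 13.7% to 17.95% in arsenic samples, without overlap and with the lower level in arsenic samples. Deep and shallow cytosines often lay in different fragments too, and the parts of depth and fragment in this were not tested.

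Among the shallow cytosines of the minus strand of 18S was a run of 14 cytosines from distance 4023 to 4108, with 11 to 49 reads, singled out after its values were seen. It stood at 27.1%, 8.78%, 13.7% and 28.9% in controls and at 13.5%, 9.65%, 8.46% and 2.61% in arsenic samples. The samples with the highest values were controls 1 and 4, and the groups overlapped.

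The downstream spacer, which the precursor carries just after 18S, was the most uneven between samples. On its plus strand, with 45 cytosines, the control samples stood at 13.7%, 18.4%, 16.9% and 17.8% and the arsenic samples at 16.9%, 10.9%, 13.8% and 11.9%. On its minus strand, with 56 cytosines, controls 1 and 2 stood at 25.0% and 27.0% and the other samples from 18.5% to 21.9%. The groups overlapped on both strands, with differences of -3.35 and -2.36 points, the latter -0.83 points without control 2 and -3.62 without control 3.

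**Figure D2:**
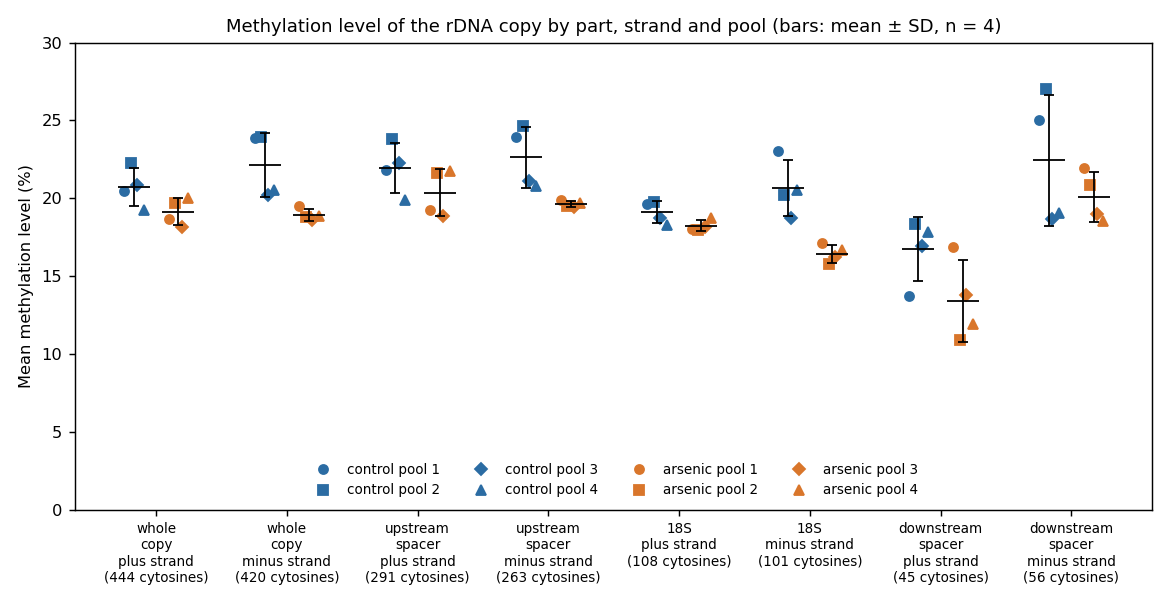
Mean methylation level in percent of each sample, for the whole copy and its parts on each strand. Blue symbols are control and orange symbols arsenic pools, with a symbol shape per pool number, and black bars give mean ± SD (n = 4). The 4 arsenic pools lie below all controls on the minus strand of the whole copy, of the upstream spacer and of 18S, and overlap the controls elsewhere, cytosines of every depth being included.

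Position within the copy was not among the values that chose it, and upstream spacer and 18S were compared within samples. The upstream spacer was higher than 18S in 8 of 8 samples, by 2.53 ± 1.13 points (SD, n = 8, range 0.93 to 4.22). The two-sided exact permutation test with sign flips over the 8 pools gave p = 0.0078125, the smallest that this design can give. Of the samples, control 4 had the smallest gap and control 2 the largest, and the gap was 2.41 ± 1.48 points in controls and 2.65 ± 0.88 in arsenic samples (SD, n = 4 each). With at least 100 reads in every sample the gap was 6.02 points, and as the median over cytosines it was 5.15 points, each in the same direction and with the same p. Which fragments are covered differs between the parts, and its bearing on this gap was not tested.

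Strand could also be tested. At 401 CpGs both cytosines were in the table, and over these the plus strand averaged 18.2% ± 1.56 and the minus strand 20.5% ± 2.15 (SD over the 8 samples). The minus strand was higher in 8 of 8 samples, by 2.24 ± 1.36 points, with the same smallest possible p of 0.0078125 in the two-sided exact permutation test. The size depended on the weighting. It was 1.42 points at CpGs with at least 100 reads on both strands (p = 0.015625, same exact permutation test), 6.09 points as all methylated reads over all reads and 5.07 points as the mean over 28 fragments. The gap was 5.01 points in control 1 and 0.65 in arsenic 4, the extremes. By part, the plus strand was lower by 1.35 points in the upstream spacer (6 of 8 samples), by 2.80 points in 18S (8 of 8) and by 6.14 points in the downstream spacer (8 of 8), for which no separate test was made.

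The small mean gap hid larger gaps of both signs. At single CpGs the 2 strands differed by a median of 9.92 points and by more than 10 points at 198 of the 401. The plus strand was higher in all 8 samples at 85 CpGs and the minus strand in all 8 at 173. Neighbouring cytosines on the same strand of a fragment, which share reads, differed by a median of only 1.90 points over 787 pairs. The gaps thus came in blocks. In a fragment of 308 bases at distance 1227 in the upstream spacer, the plus strand averaged 34.96% and the minus strand 8.95% over 41 CpGs each. In the next fragment, of 111 bases, the plus strand averaged 11.3% and the minus strand 30.004%. Among 28 fragments with at least 3 cytosines on both strands, 9 had the higher level on the plus strand and 19 on the minus strand, and 11 differed by more than 10 points. In 15 of the 28 the deeper strand had more than 2 times the coverage of the other, and the part of that depth gap in the level gap was not tested.

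**Figure D3:**
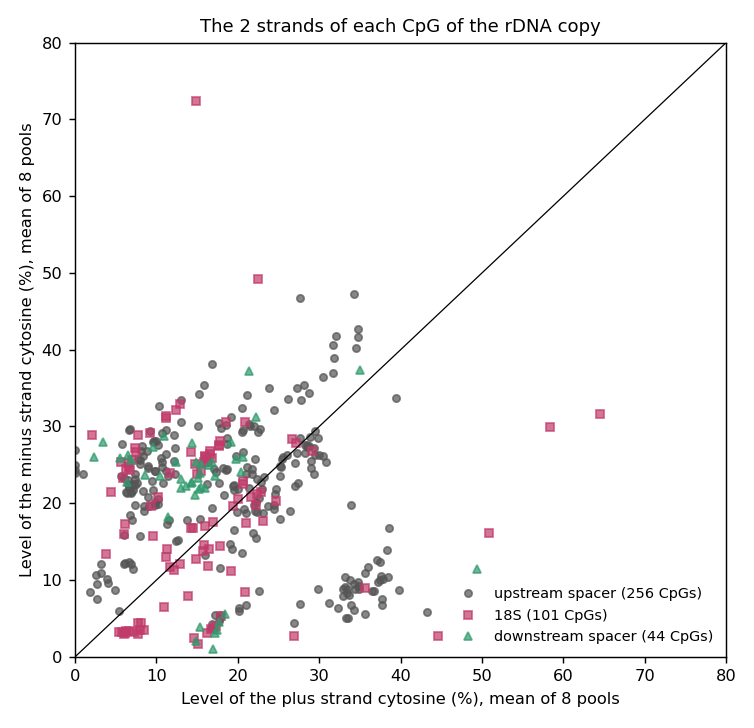
Level of the minus strand cytosine against that of the plus strand cytosine, in percent, at each of the 401 CpGs read on both strands (means of the 8 samples, symbols by part, line of equal levels drawn). Many points lie far from the line, with a cloud of upstream spacer CpGs above 30% on the plus strand and near 10% on the minus strand and a larger cloud above the line.

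The 3 CpGs with the largest gap between strands are in the sequences above. At c4619+, in 18S, the plus strand stood at 14.9% ± 1.35 with 841 to 1465 reads, while its partner c4620- stood at 72.4% ± 11.2 with 24 to 56 reads (SD, n = 8). At c4129+, also in 18S, the plus strand stood at 44.6% ± 8.49 with 127 to 255 reads and c4130- at 2.70% ± 1.16 with 280 to 461 reads. At c5250+, in the downstream spacer, the plus strand stood at 49.3% ± 7.94 with 31 to 57 reads and c5251- at 11.5% ± 1.70 with 311 to 442 reads. In each of the 3 the higher strand was the shallower strand. The CpGs of c4619+ and c5250+ lie inside CCGG, so that their cytosines on the plus and minus strands belong to different fragments. c4620- and c5250+ were the only cytosines in the table on their fragment strands, of 5 and 18 bases. The part of the cut site in these gaps was not tested.

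Level varied between fragments far more than within them. The copy held 77 fragment strands, that is an MspI fragment on a strand, of which 61 had at least 3 cytosines and together held 848 of the 864. The fragment strand accounted for 87.5% of the variance of mean level among the cytosines, given as a description since cytosines of a fragment share reads. The 61 means ran from 0.83% to 85.8% with a median of 19.9%. The range narrowed with depth. The 27 fragment strands with a median of at least 1000 reads lay from 5.38% to 30.004%, and the 14 with under 100 reads held both extremes.

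The highest of them was in 18S, on the plus strand of a fragment of 73 bases at distance 3776. Its 5 cytosines averaged 85.8% ± 5.03 (SD, n = 8) at a median of 29 reads. Here c3825+ read as methylated at 100% in 6 of the 8 samples and at 85.7% and 85.4% in control 2 and arsenic 4, with 14 to 50 reads. c3827+ averaged 92.5% ± 11.3 and c3844+ 88.7% ± 12.5. This fragment lies in sequence that a place on chromosome 6, described below, matches at 98.0% identity. No cytosine of the minus strand of this fragment was in the table, so the strands could not be compared there.

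The lowest was the plus strand of a fragment of 61 bases at distance 2948 in the upstream spacer, whose 7 cytosines averaged 0.83% ± 0.96 at a median of 19.9 reads. c2954+, c2956+ and c2968+ were at 0% in all 8 samples. With 10 to 26 reads each, a count of 0 allows a level of up to 30% in the shallowest sample. The minus strand of the fragment, with 8 cytosines and a median of 69.2 reads, averaged 23.2% ± 7.61.

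Some cytosines were low at high depth. c4683+ and c5118- in 18S stood at 2.04% ± 0.617 and 2.49% ± 0.737, and c5191- and c5209- at the start of the downstream spacer at 2.10% ± 1.30 and 0.956% ± 0.494 (SD, n = 8), all with over 600 reads in each sample. c4274-, the lowest of 18S, stood at 1.63% ± 1.14. c5118-, c5191- and c5209-, on either side of the 18S end, lie in a run of low levels on the minus strand. In the upstream spacer the highest levels were those of c652+ at 47.7% ± 4.61, c1992+ at 47.3% ± 12.9 and c2724- at 47.3% ± 9.08. The first lies in a fragment of 247 bases at distance 443 that averaged 41.2% ± 3.70 on the plus strand over 18 cytosines. In the downstream spacer c5269- stood at 50.2% ± 8.34 and c5459- at 37.3% ± 8.45.

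**Figure D4:**
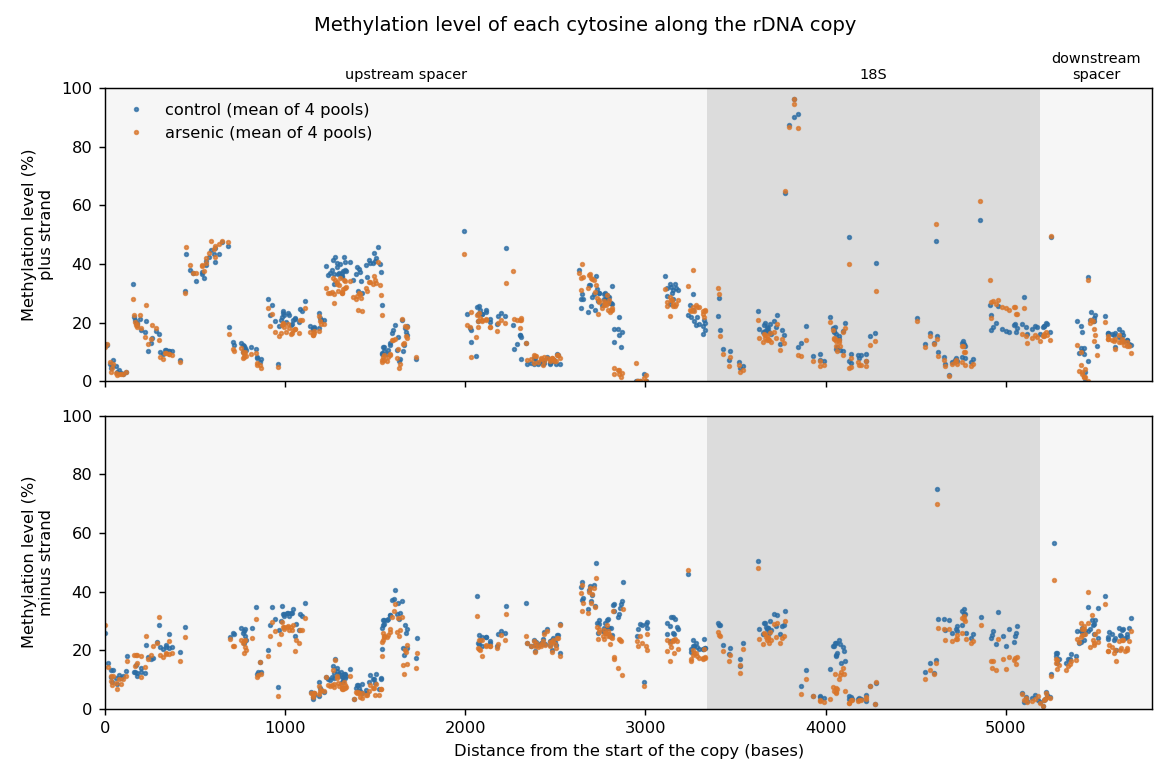
Methylation level in percent of every cytosine against distance from the start of the copy in bases, on the plus strand (top) and the minus strand (bottom). Blue points are means of the 4 control pools and orange points of the 4 arsenic pools, and the grey block is 18S. Levels form steps that follow the fragments, differ between the strands, and reach 96.4% at c3825+.

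Cytosines inside CCGG, where MspI cuts, were higher. Their 76 members averaged 28.6%, against 19.4% for the others. The 16 fragment strands with a single cytosine in the table all had it inside CCGG, and these averaged 38.8%, from 4.45% to 72.4%, at mean coverages of 19.4 to 176 reads. Several stand out in the plot of level along the copy as lone high points, and the part of the cut site in their level was not tested.

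The pattern along the copy was shared by all samples. Over the 371 cytosines with a mean of at least 1000 reads, Pearson's r between 2 control samples was 0.955 to 0.980 (6 pairs), between 2 arsenic samples 0.920 to 0.974 (6 pairs) and between a control and an arsenic sample 0.904 to 0.980 (16 pairs). These are descriptions across cytosines that share reads and fragments. At the same 371 cytosines the SD between samples of a group had a median of 1.95 points, against 0.706 expected from counting alone. At 171 cytosines under 100 reads with a level above 0 the values were 8.43 and 5.97 points. These are descriptions, since reads without molecular identifiers may count a molecule more than once.

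Most cytosines shared the direction of the group difference. Arsenic means were lower at 710 and higher at 150 of the 864. They were lower at 384 of 420 on the minus strand and at 326 of 444 on the plus strand, and by part at 436 of 554, 184 of 209 and 90 of 101. In windows of 500 bases, 21 of 24 windows by strand had the lower mean in the arsenic samples. Cytosines of a fragment share reads, so these counts are not independent.

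The 4 arsenic samples all lay below the 4 controls at 64 cytosines, 7.41% of the copy, and all above at 2, 0.231%. Over the 2130064 cytosines of chromosomes 1 to 19, X and Y the shares were 1.21% and 0.892%. Nothing is read from this, since the contrast was used to choose the copy. Of the 64, 50 were on the minus strand, and the parts held 30, 30 and 4. Leaving out 1 sample moved the 64 to between 72 and 183, because 3 samples separate from 4 more easily, and to 183 without control 4, the lowest control. The shares over all cytosines above hold for 4 against 4 samples only. None is given with a sample left out, so nothing is read from these counts either.

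By fragment strand, the arsenic mean was lower in 48 of 61 and higher in 13, with a median difference of -2.14 points. Over 320660 fragment strands of the genome it was lower in 54.3%. Groups were separate in 2 of the 61, both lower, where the share over the genome was 1.83% for lower and 1.13% for higher, and nothing is read from that count either. The first of them was the minus strand of a fragment of 146 bases at distance 690 in the upstream spacer. Its control samples stood at 27.4%, 27.7%, 26.0% and 24.9% and its arsenic samples at 24.3%, 21.1%, 22.5% and 23.1%. The other was the minus strand of a fragment of 151 bases at distance 3625 in 18S. Its control samples stood at 29.7%, 28.6%, 27.8% and 27.7% and its arsenic samples at 22.6%, 25.8%, 25.6% and 26.1%. Both have medians above 3000 reads.

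These differences varied with depth. Among the 27 fragment strands with at least 1000 reads, 25 were lower in the arsenic samples, with differences from -5.25 to 1.34 points. The lowest was the minus strand of the 111-base fragment above, at 32.6% ± 2.84 in controls and 27.4% ± 2.42 in arsenic samples (SD, n = 4 each). The exceptions were the plus strand across the end of 18S, at 1.34 points, and the minus strand of a fragment of 119 bases at distance 1108, at 0.09 points. The first is deep by its median only, and its mean joins shallow and deep cytosines, from 46 to 7213 reads. Among the 14 with under 100 reads, 9 were lower, with differences from -14.9 to 9.19 points that lie within their wide spread. The deepest fragment strand, on the minus strand at distance 2337, had 27.3%, 25.0%, 20.8% and 18.9996% in controls and 28.3%, 21.1%, 20.3% and 20.4% in arsenic samples, so that control 1 and arsenic 1 were the highest there.

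Single samples carried much of the spread. Of the 27 deep fragment strands, control 1 was the highest sample in 13 and control 2 in 8, and arsenic 3 was the lowest in 10. Without control 1 the count lower in the arsenic samples was 24 of the 27, and leaving out any 1 sample kept it between 24 and 26.

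**Figure D5:**
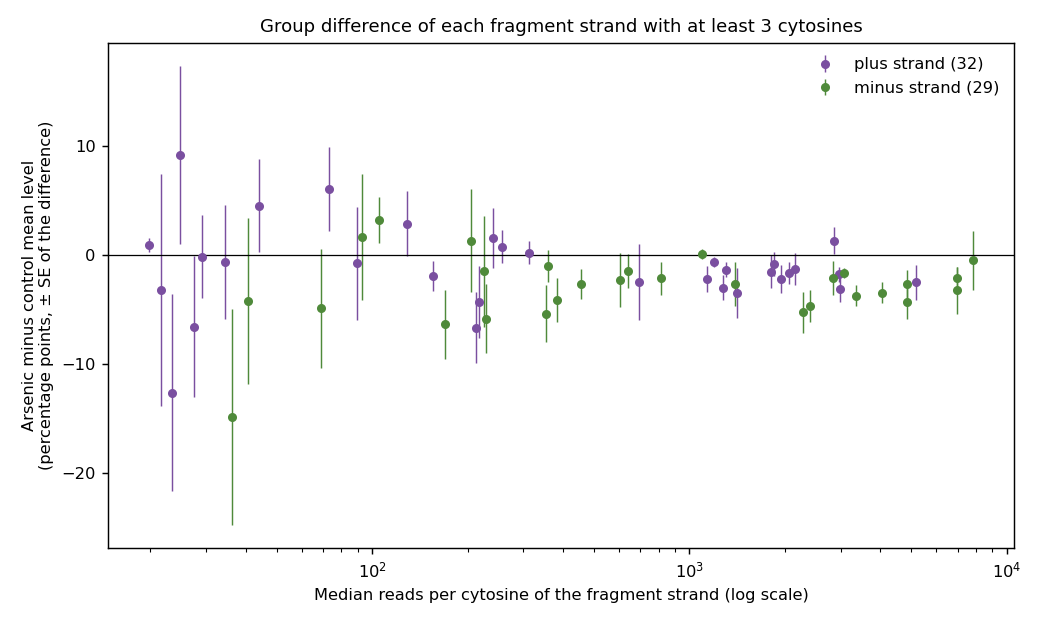
Difference of the group means (arsenic minus control, percentage points, ± its standard error from 4 and 4 pools) against median reads per cytosine (log scale), for the 61 fragment strands with at least 3 cytosines, coloured by strand. Beyond 1000 reads the points lie between -5.25 and 1.34 with 25 of 27 below 0, and under 100 reads they scatter from -14.9 to 9.19.

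DMCs were called on pooled counts by the likelihood-ratio test of a logistic regression, with a difference of 10 percentage points or more between the pooled levels and a Benjamini-Hochberg q not above 0.01. The copy held 1 hypoDMC and 0 hyperDMCs, where 0.323% and 0.228% of all cytosines were called hypoDMCs and hyperDMCs, and nothing is read from these counts. The hypoDMC was c4129+, in 18S. Its control samples stood at 52.9%, 58.2%, 48.3% and 37.9% and its arsenic samples at 44.9%, 44.8%, 35.9% and 33.9%, so that the groups overlapped. The pooled difference was -10.2 points. Its partner c4130- had a pooled difference of -1.31 points.

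The pooled test takes each read as independent. By it 274 of the 864 cytosines had a q of at most 0.01, 31.7%, all with the lower level in the arsenic samples, where 0.489% of all cytosines were lower at this q. Of these 273 differed by under 10 points. With at least 5 points the count was 24, 2.78% of the copy, against 0.45% of all cytosines. c5211+, at 4465 reads or more, was among the 274 with a pooled difference of -3.53 points, while its samples overlapped at 22.4%, 19.6%, 18.5% and 14.7% in controls and 14.9%, 16.3%, 15.1% and 15.7% in arsenic samples. The median overdispersion was 3.41 on the copy and 1.49 over all cytosines. It is the ratio of the variance between samples of a group to that from counting alone. limma on log2 ratios, which uses the spread between samples, called 0 cytosines of the copy, with 14 (1.62%) at an unadjusted p under 0.05 against 5.11% of all cytosines. A likelihood-ratio test scaled for overdispersion called 0, with 160 (18.5%) at an unadjusted p under 0.05 against 3.87% of all cytosines. Both tests also called 0 of the 2130064 cytosines in all. Nothing is read from any of these counts and shares, since the contrast they test was among the values that chose the copy. At least 10 points separated the pooled levels of 28 cytosines with the lower and 8 with the higher level in the arsenic samples. No share over all cytosines is given for these 2 counts, and nothing is read from them.

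The largest differences were at shallow cytosines. c2871- had 31.8%, 58.6%, 9.30% and 47.8% in controls and 0%, 11.1%, 17.9% and 16.7% in arsenic samples, with 13 to 56 reads and overlap, a pooled difference of -18.9 points. c2855+ and c4055- had pooled differences of -16.9 and -16.7 points. c2264+, the largest increase, had 28.6%, 0%, 38.7% and 9.09% in controls and 33.3%, 50%, 40% and 27.3% in arsenic samples, with 10 to 52 reads and a pooled difference of 14.8 points. c2310+ and c3236+ had pooled differences of 13.1 and 12.5 points. None of these 6 reached a q of 0.01 in the likelihood-ratio test (lowest q 0.0150).

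Other places of the genome resemble the copy, which bears on where its reads were placed. A blastn search found 30 similar places outside it on the chromosomes, 6 of them at 95% identity or more. In all, 169 cytosines of the copy lay in sequence that these 6 match. Matches in sequence not placed on a chromosome were left out. Cytosines of the table lay in 11 of the 30, and in 1 of them, on chromosome 6, 15 of its 68 cytosines were read as deeply as the copy.

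That place, chr6:3200770-3201677, matches 18S over 908 bases at 98.0% identity. The match covers distances 3668 to 4574 of the copy. Within them lie the highest fragment strand, at 3776, the run from 4023 to 4108 and the named cytosines from c3825+ to c4277+, with the DMC c4129+. Whether any of their reads came from chromosome 6 was not tested. The 15 deep plus-strand cytosines of the place, at chr6:3201422-3201557, had 2907 to 9368 reads. They align to distances 4320 to 4455 of the copy, inside the 154-base fragment for which the table has 0 cytosines of the copy, and the stretch differs from the copy at 7 bases. Their mean level was 27.2% ± 3.30 (SD, n = 8). It was 31.7%, 30.1%, 27.5% and 24.9% in controls and 30.7%, 25.6%, 22.6% and 24.7% in arsenic samples, so that the groups overlapped. On the minus strand of the same stretch 13 cytosines had 24 to 105 reads and a level of 75.2% ± 4.20. The rest of the match, with 40 cytosines of 12 to 187 reads, stood at 75.5% ± 5.33. Depth and level of the 15 thus resemble those of the copy and not those of their neighbours, and whether their reads came from ribosomal units was not tested.

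A place of 140 bases on chromosome 16, chr16:18533192-18533331, is identical to the copy across the start of 18S. Its 5 cytosines had a median of 50.6 reads and a level of 96.9%. A place of 338 bases on chromosome 1 matches distances 4603 to 4940, where c4619+, c4620- and c4683+ lie, at 96.7% identity. It had 28 cytosines at a median of 33.8 reads and a level of 78.9%. In contrast, a pair of neighbouring places on chromosome 1 that match the upstream spacer, at 94.8% and 83.9% identity, had 6 cytosines at a level of 26.8% and 7 at 18.8%, with medians of 56.8 and 57.6 reads. Apart from the stretch on chromosome 6, none of the 11 places held a cytosine with over 1000 reads.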

How the data were processed

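Type A spermatogonia of 4 control and 4 arsenic pools were analysed by RRBS. Submitters' processing notes name Trim Galore 0.6.5, Bismark 0.22.3 and methylKit 1.22.0. The authors trimmed the reads, mapped them to mm10 and joined the samples without merging strands. The deposited table holds read counts per cytosine (coverage, C and T) with no normalization, and every cytosine has at least 10 reads in each sample. No reads were realigned.

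Levels are C divided by coverage, averaged without weights over cytosines, and group values are mean ± SD of 4 pools. Parts were placed from RefSeq and GENCODE annotation of GRCm38. MspI fragments were read from its CCGG sites. DMCs follow the study's definition (logistic regression on counts, q of at most 0.01, at least 10 points). methylKit was not run. The equivalent likelihood-ratio test was computed over 2130064 cytosines with Benjamini-Hochberg adjustment. It was tried on simulated counts that held no variation between pools. The real samples did vary, so that trial does not measure false calls in these data. limma used log2((C + 1)/(T + 1)). Spacer against 18S and plus against minus strand were each tested by sign flips over the 8 pools (exact permutation, two-sided), the only 2 tests on means, both unadjusted.

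The copy, its parts and the named cytosines were chosen with earlier results of these data known. Named were, per part, the 3 highest, 3 lowest, deepest and shallowest cytosines, the 3 largest decreases and increases, and the 3 largest strand differences. Other fragments and places were chosen after their values were seen. Alternatives comprised coverage minima, weighting, medians, summed strands, omission of CCGG or of a sample, other tests, and, added after seeing the data, omission of sequence found elsewhere, omission of the deepest cytosines from the copy as well, fragments as units, and leaving samples out of the counts and of the chromosome 6 level. Tools were R 4.3.3 with limma 3.58.1, blastn 2.17.0 and Python 3.11.15 with scipy 1.17.1, numpy 2.4.6, pandas 2.3.3 and matplotlib 3.10.9. At 1000 reads a level of 20% has a counting error near 1 point.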

Additional observations from a re-analysis of the deposited data

How the results depend on the processing

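The lower mean level of the copy in the arsenic samples kept its direction under every alternative tried (coverage of at least 20, 30 or 100 reads, pooled reads, medians, summed strands, without CCGG, without sequence found elsewhere, without any 1 sample), between -2.87 and -1.81 points, and so did the 3 parts and both strands under those run for them (not sequence found elsewhere, and for strands not summed strands). In 18S the minus strand moved from -4.20 to -2.11 points with at least 100 reads and to -6.94 as the median over cytosines. The plus strand moved from -0.88 to -2.38 with at least 100 reads, to -1.48 as the median and to -2.59 with pooled reads. In the upstream spacer the plus strand moved from -1.57 to -2.49 with at least 100 reads. In the downstream spacer the plus strand moved from -3.35 to -2.01 with at least 20 or 30 reads, and the minus strand from -2.36 to -3.62 with pooled reads. Spacer against 18S stayed between 2.15 and 6.02 points, and the plus strand stayed below the minus strand by 1.224 to 6.09 points, with exact permutation p of at most 0.0156 and 0.0234. The mean share of coverage on the copy was 1.11%. It was 1.19% with the 0.1% deepest cytosines left out of the total alone, and 0.0280% with them left out of the copy too (an alternative added after seeing the data), which removes 571 of its 864 cytosines. The groups' difference in that share, -0.00624 percentage points, changed sign with 1 sample left out, from -0.0349 to 0.0272, above 0 without control 1, arsenic 1 or arsenic 4, and was 0.00270 with the deepest cytosines left out on both sides.

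The count of hypoDMCs, 1, was 274 with no minimum difference (10422 of all cytosines), 24 with at least 5 points (9587 of all), 2 with coverage of at least 20 (5448 of 1285363), at least 30 (4208 of 822917) and without CCGG (5662 of 1683662), and 3 with strands summed (4084 of 1551623). It was 0 with limma, 0 with limma and the replicate block, and 0 with overdispersion scaling, and these 3 fits also called 0 of all 2130064 cytosines. Without 1 sample it was 0 to 4, and 0 without control 2, while 6464 to 7739 of all cytosines were called. The cause of these changes was not tested, beyond the fewer samples or looser thresholds themselves. No hyperDMC was called on the copy under these settings. The labels do not say whether the sample numbers pair the samples. Deviations of same-numbered samples correlated at -7.81e-05 to 0.00178, and 4 of 8 samples correlated best with their own number. These values were not tested and do not decide it. With the replicate block in a Cochran-Mantel-Haenszel test, the count was 1, and 4758 of all cytosines were called against 6885 without the block. Counting error limits cytosines under 100 reads, and placement of reads from other units was not tested. Replicates are pools, so variation between animals is not seen. No value of 54 groups of 4 stood far enough from the others to be singled out.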
